A study of Homo sapiens with 3 samples.

Results

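The 50 genes described here encode the WNT proteins and the proteins that receive, restrain and relay them, and they were taken as a fixed list of symbols from 19974 protein-coding genes on chromosomes 1 to 22 and X. By role, 18 are ligands, 17 are receptors, 10 are inhibitors and 5 are nuclear factors. All 50 were found in the gene annotation. The list and the roles were chosen with earlier results of these data known. Each gene was examined at its annotated start, in its span and in its locus, which is the span with 50 kb on either side.

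The cells were HCC1599, a human cell line established from a triple-negative breast cancer, and the labels name no treatment. Chromatin was immunoprecipitated with an Active Motif antibody to H3K27ac, an acetyl mark of active promoters and enhancers, or with a Cell Signaling Technology antibody to H3K4me3, a trimethyl mark of promoters. Each mark had 1 library, and an input library without antibody was not analysed here. With 1 library per mark there is no replicate error and no test, the read depth behind a peak is unknown, and the exact 95% Clopper-Pearson intervals below cover counting error over genes or peaks only.

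WNT proteins are secreted, lipid-modified ligands that bind a frizzled receptor together with LRP5 or LRP6. Engagement stops a complex of AXIN and APC from marking beta-catenin for destruction, and beta-catenin then enters the nucleus and acts with the TCF and LEF factors on target genes. Other WNT proteins act without beta-catenin, in part through the receptors ROR1 and ROR2. In the mammary gland the pathway is known for its part in stem and progenitor cells, and the mouse gene Wnt1 was found through viral insertions in mammary tumours.

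On these chromosomes 72894 H3K27ac peaks were listed, of which 403 fell in the loci of the 50 genes. For H3K4me3 the list had 32043 peaks there, and 200 fell in the loci. As a check of the cell line, both marks lay at the starts of all 5 epithelial marker genes, among them EPCAM and CDH1, and of the basal keratin KRT5, whereas KRT14 had H3K27ac alone. Neither mark lay at the starts of the 3 lymphocyte, 2 fibroblast and 2 endothelial marker genes. Of the 2 myeloid genes, CD14 had H3K4me3 alone and CSF1R had neither.

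The start sequences of 7 members are shown because they span the range of states that the results turn on. SFRP2 and DKK1 carried H3K4me3 with no H3K27ac anywhere in their loci, and WNT1 carried H3K4me3 alone at its start. FZD1 and TCF7L2 carried both marks in wide peaks, and WNT3 and WNT8B carried neither mark at the start. Each run holds the 250 bases before the start and the first 50 bases of the transcript, 5′ to 3′ on the gene's strand, from RefSeq on GRCh38.p14, with every CpG dinucleotide in capitals. The windows are chr4:153789034-153789333 on the minus strand for SFRP2, chr10:52314031-52314330 on the plus strand for DKK1 and chr12:48978072-48978371 on the plus strand for WNT1. Those of the genes with both marks are chr7:91264183-91264482 for FZD1 and chr10:112949997-112950296 for TCF7L2, each on the plus strand. Those of the genes with neither mark are chr17:46818643-46818942 on the minus strand for WNT3 and chr10:100462759-100463058 on the plus strand for WNT8B.
SFRP2: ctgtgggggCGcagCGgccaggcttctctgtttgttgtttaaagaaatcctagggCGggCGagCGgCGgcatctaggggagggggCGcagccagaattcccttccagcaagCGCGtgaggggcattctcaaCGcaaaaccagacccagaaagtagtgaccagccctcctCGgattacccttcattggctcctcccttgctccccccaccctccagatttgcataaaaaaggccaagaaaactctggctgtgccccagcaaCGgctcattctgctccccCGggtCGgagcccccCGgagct
DKK1: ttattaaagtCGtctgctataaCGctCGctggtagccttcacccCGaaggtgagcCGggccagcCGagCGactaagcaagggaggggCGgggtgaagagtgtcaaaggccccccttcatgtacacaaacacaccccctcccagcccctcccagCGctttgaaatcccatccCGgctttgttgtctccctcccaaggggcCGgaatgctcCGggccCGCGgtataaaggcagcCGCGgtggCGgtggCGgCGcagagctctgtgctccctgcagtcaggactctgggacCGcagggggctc
WNT1: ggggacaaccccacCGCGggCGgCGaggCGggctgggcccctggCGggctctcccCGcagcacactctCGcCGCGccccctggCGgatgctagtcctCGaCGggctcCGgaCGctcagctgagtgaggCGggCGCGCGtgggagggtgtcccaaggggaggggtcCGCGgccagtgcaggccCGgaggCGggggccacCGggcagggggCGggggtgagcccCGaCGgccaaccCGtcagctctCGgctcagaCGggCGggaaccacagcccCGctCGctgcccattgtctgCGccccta
FZD1: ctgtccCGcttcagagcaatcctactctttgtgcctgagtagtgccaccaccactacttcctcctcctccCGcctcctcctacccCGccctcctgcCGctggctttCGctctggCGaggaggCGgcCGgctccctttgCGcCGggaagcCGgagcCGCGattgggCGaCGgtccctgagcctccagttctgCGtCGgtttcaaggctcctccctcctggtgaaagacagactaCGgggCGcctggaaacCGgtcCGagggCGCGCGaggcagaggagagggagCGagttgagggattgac
TCF7L2: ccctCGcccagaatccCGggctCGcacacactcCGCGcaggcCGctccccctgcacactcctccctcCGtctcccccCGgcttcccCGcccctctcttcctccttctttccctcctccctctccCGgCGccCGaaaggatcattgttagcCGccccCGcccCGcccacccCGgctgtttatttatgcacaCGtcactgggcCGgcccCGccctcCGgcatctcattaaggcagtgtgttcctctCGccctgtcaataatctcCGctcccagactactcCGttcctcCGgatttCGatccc
WNT3: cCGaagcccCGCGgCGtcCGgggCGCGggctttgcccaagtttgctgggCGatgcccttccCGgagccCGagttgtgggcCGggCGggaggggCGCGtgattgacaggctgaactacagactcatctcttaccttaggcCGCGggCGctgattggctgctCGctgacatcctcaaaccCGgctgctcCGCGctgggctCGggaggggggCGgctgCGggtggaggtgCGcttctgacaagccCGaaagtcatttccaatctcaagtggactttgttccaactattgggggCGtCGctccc
WNT8B: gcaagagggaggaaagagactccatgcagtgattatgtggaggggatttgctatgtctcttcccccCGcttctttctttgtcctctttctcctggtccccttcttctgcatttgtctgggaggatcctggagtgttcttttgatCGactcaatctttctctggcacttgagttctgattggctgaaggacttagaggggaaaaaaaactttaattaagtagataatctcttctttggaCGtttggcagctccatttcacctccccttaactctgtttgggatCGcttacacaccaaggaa

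A mark was called at a start where a peak overlapped the 1 kb on either side by at least 1 bp. For 15 of the 50 members, and for 4161 of all protein-coding genes, the reference used here gave no strand, and a peak at either annotated end was then counted. H3K4me3 without H3K27ac was called at 15 of the 50 members, which is 30.0% with an interval of 17.9 to 44.6%, against 12.3% of all protein-coding genes. Both marks were called at 26 members, or 52.0%, against 55.6% of all genes. H3K27ac alone was called at 1 member, or 2.0%, against 2.31% of all genes, and neither mark at 8 members, or 16.0%, against 29.7% of all genes. H3K4me3 with or without H3K27ac lay at 41 members, or 82.0%, against 67.9% of all genes, and H3K27ac with or without H3K4me3 at 27, or 54.0%, against 57.9%. With only peaks of a score of at least 100, both marks were called at 22 members, or 44.0%, against 48.8% of all genes, and H3K4me3 alone at 18, or 36.0%, against 17.8%.

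The share with both marks was lowest at the ligands. Both marks were called at 5 of the 18 ligands, which is 27.8% with an interval of 9.69 to 53.5%. They were called at 12 of the 17 receptors, which is 70.6% with an interval of 44.0 to 89.7%, and at 6 of the 10 inhibitors, which is 60.0% with an interval of 26.2 to 87.8%. Receptors and inhibitors together came to 18 of 27, or 66.7% with an interval of 46.0 to 83.5%. The interval of the ligands overlaps that of the receptors and inhibitors, and the difference has no replicate check. At a score of at least 100, both marks were called at 5 of 18 ligands and 9 of 17 receptors. They were then called at 5 of 10 inhibitors, against 48.8% of all genes. Of the 26 genes with both marks, 11 lacked a strand, and in each of these an H3K27ac peak overlapped an H3K4me3 peak at one and the same end. Among the 35 members with a strand, both marks were called at 15, or 42.9%, against 57.4% of all genes with a strand, and by role at 3 of 15 ligands, 7 of 10 receptors and 3 of 6 inhibitors.

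**Figure D1:**
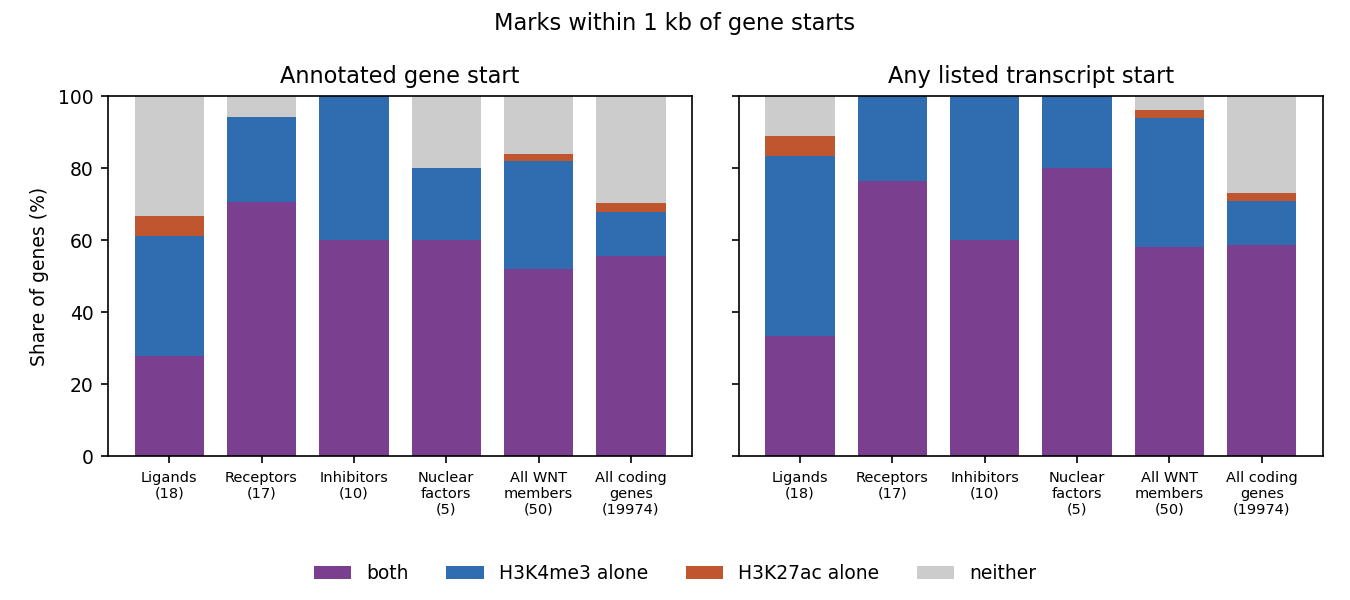
Share of genes in percent by the marks called within 1 kb of the annotated start (left) and of any listed transcript start (right), for the 4 roles, all 50 members and all 19974 protein-coding genes. At the annotated start the ligands have the lowest share with both marks, 27.8%, and the receptors the highest, 70.6%, against 55.6% of all genes.

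Ligands with both marks at the start were WNT2B, WNT4, WNT6, WNT7B and WNT10B. WNT4, which in the mouse mammary gland acts downstream of progesterone, had H3K27ac peaks of 3779 and 498 bp and H3K4me3 peaks of 2121 and 1244 bp at its start. WNT6 had an H3K27ac peak of 2333 bp within an H3K4me3 peak of 3699 bp. WNT10B, a ligand of the beta-catenin branch, had an H3K27ac peak of 828 bp with a score of 133.82 inside an H3K4me3 peak of 2566 bp. The score is the authors' own value for a peak, has no stated unit, starts at 30 and piles up at 3100, and it serves here only to rank peaks within a list. WNT7B carried both marks at each end of its span, with H3K27ac peaks of 2117 bp at one end and of 1491 and 420 bp at the other.

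WNT2B had both marks at its annotated start and H3K4me3 alone at its other listed start. At the annotated start an H3K27ac peak of 2629 bp with a score of 1029.55 overlapped H3K4me3 peaks of 583 and 832 bp, whose scores were 40.19 and 202.23. At the other listed start, 42424 bp downstream, there was an H3K4me3 peak of 2077 bp with a score of 2977.05, and the nearest H3K27ac peak lay 42688 bp from that start. No ligand had an H3K27ac start peak with a score of 3100, which 7 of the 50 members had, or 14.0%, against 7.49% of all genes. The highest score counted among the ligands was 1294.33, at 1 end of WNT7B, which has no strand in the reference. At its other end the H3K27ac peaks scored 130.89 and 39.7, and which end is the start was not resolved. Among ligands with a strand the highest score was 1135.67, at WNT4.

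H3K4me3 alone was called at the starts of WNT1, WNT2, WNT3A, WNT7A, WNT9A and WNT11. WNT1 had an H3K4me3 peak of 1350 bp at chr12:48977618-48978967, and its nearest H3K27ac peak lay 6216 bp from the start. The WNT1 span held no H3K27ac peak. The WNT1 locus held 8 H3K27ac peaks and that of its neighbour WNT10B, 6586 bp away, held 7, and the loci overlap. WNT3A, the ligand most used to activate the beta-catenin branch in culture, had H3K4me3 peaks of 824 and 1963 bp at its start. No H3K27ac peak lay in the WNT3A span, and 4 of the 7 in its locus lay at ends of the neighbouring genes ARF1, C1orf35 and MRPL55.

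WNT7A had an H3K4me3 peak of 3037 bp at chr3:13878018-13881054, and its nearest H3K27ac peak was 18260 bp from the start. WNT2 had an H3K4me3 peak of 2408 bp with a score of 2660.72, and its span held 1 H3K27ac peak, of 455 bp with a score of 35.63. WNT9A had the widest of these peaks, 3933 bp at chr1:227945553-227949485. A small H3K27ac peak of 645 bp with a score of 34.99 lay within that peak, 1490 bp from the start and so outside the start window. WNT11, a ligand known for directing cell movements without beta-catenin, had an H3K4me3 peak of 1036 bp at the end of its span and another of 3881 bp with a score of 3100 just inside it. The H3K27ac peak in the WNT11 span measured 397 bp, at a score of 33.25.

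WNT5B, a ligand of the branch without beta-catenin, was the only member with H3K27ac alone at the start. When only peaks with a score of at least 100 were counted, WNT5B had neither mark there. Its peak of 857 bp at chr12:1615898-1616754 had a score of 70.16, its span held no H3K4me3 peak, and the nearest one lay 9896 bp from the start. The H3K27ac peaks deeper in the span were 568 and 542 bp wide, with scores of 30.56 and 42.5. The WNT5B locus as a whole held 16 H3K27ac and 8 H3K4me3 peaks.

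Neither mark was called at the annotated starts of WNT3, WNT5A, WNT8B, WNT9B, WNT10A and WNT16, but 4 of these genes have another listed start inside the span that carried H3K4me3. WNT5A, the best known ligand of the branch without beta-catenin, had both marks at a start 17957 bp inside its span. There an H3K27ac peak of 426 bp with a score of 38.95 lay within an H3K4me3 peak of 4337 bp with a score of 3100. A further WNT5A start, 23865 bp inside, had an H3K4me3 peak of 1653 bp and no H3K27ac. WNT9B had an H3K4me3 peak of 2094 bp with a score of 3100 at its listed start 18394 bp inside, where the nearest H3K27ac peak was 17176 bp away. H3K4me3 alone also lay at the inner starts of WNT10A, with a peak of 963 bp, and of WNT16, with a peak of 1461 bp.

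WNT3 and WNT8B had neither mark at any listed start. The WNT3 span held 4 H3K27ac and 2 H3K4me3 peaks, and all lay at least 43267 bp from its start. The widest, an H3K27ac peak of 4082 bp with a score of 784.89, lay at the far end of the gene. WNT8B held 1 peak, an H3K4me3 peak of 1299 bp with a score of 1729.44 near its far end. With every listed start counted, both marks were called at 6 of 18 ligands, 13 of 17 receptors and 6 of 10 inhibitors, against 58.5% of all genes. H3K4me3 alone was then called at 9 of 18 ligands, 4 of 17 receptors and 4 of 10 inhibitors, and at 18 of all 50 members, or 36.0%, against 12.3% of all genes. H3K27ac alone was called at 1 member, or 2.0%, against 2.22% of all genes, and neither mark at 2, or 4.0%, against 26.9%.

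**Figure D2:**
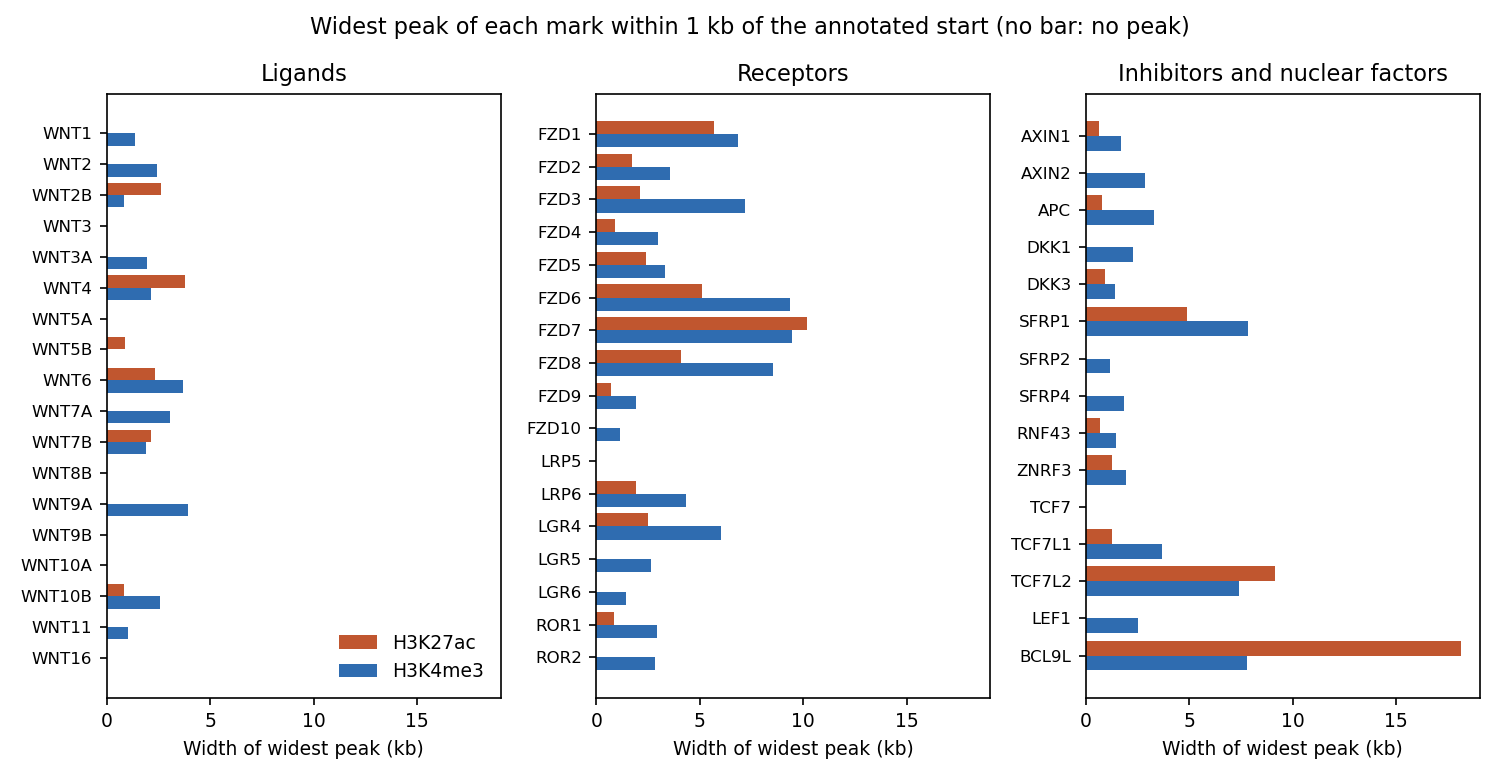
Width in kb of the widest H3K27ac peak (upper bar) and the widest H3K4me3 peak (lower bar) overlapping the 1 kb on either side of the annotated start of each member, or of either end where no strand was given. The widest H3K4me3 peaks are those of the frizzled genes FZD6 and FZD7, 9355 and 9475 bp, and the widest H3K27ac peak is that of BCL9L, 18129 bp.

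H3K4me3 lay at the starts of all 10 frizzled receptors, against 67.9% of all genes. Both marks were called at 9 of the 10, against 55.6% of all genes, and the remaining gene, FZD10, had H3K4me3 alone. Among the 9, the widest H3K4me3 peak at the start ranged from 1894 to 9475 bp, with 6824 bp at the median, against a median of 3747 bp at all genes with both marks. H3K27ac start peaks with a score of 3100 lay at 4 of the 10 frizzled genes, FZD1, FZD6, FZD7 and FZD8. FZD7, a receptor known from basal and stem cells of the mouse mammary gland, had an H3K27ac peak of 10203 bp at chr2:202030144-202040346 and an H3K4me3 peak of 9475 bp, each of which covers its span of 4587 bp. FZD6 had an H3K27ac peak of 5115 bp within an H3K4me3 peak of 9355 bp.

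FZD1, whose start sequence is given above, had an H3K27ac peak of 5697 bp within an H3K4me3 peak of 6824 bp, and FZD8 had one of 4097 bp within 8538 bp. The FZD8 peaks also come within 1 kb of an end of the predicted gene LOC124902528. Likewise, the H3K4me3 peak of 7186 bp at FZD3 comes within 1 kb of an end of FBXO16. The weakest H3K27ac among the 9 lay at FZD4, with a peak of 893 bp and a score of 63.15, and at FZD9, with peaks of 583 and 689 bp and scores of 54.65 and 45.26. FZD4 and FZD9 have H3K4me3 alone when only peaks with a score of at least 100 are counted, as do ROR1 and RNF43. FZD10 then has neither mark. FZD10 had an H3K4me3 peak of 1130 bp with a score of 39.36, the lowest best H3K4me3 score at the start of any member with the mark, ending 365 bp outside its span. The nearest H3K27ac peak to FZD10 was 12895 bp from the nearer of its annotated ends.

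The other receptors were more mixed, with both marks at 3 of 7, against 55.6% of all genes. These were the co-receptor LRP6, the R-spondin receptor LGR4 and ROR1. LGR4 had an H3K4me3 peak of 6008 bp at its start that covered H3K27ac peaks of 2485 and 537 bp, and its span with 1 kb at each end held 10 H3K27ac peaks in all. At LRP6 an H3K27ac peak of 1905 bp lay within an H3K4me3 peak of 4329 bp. ROR1 had weak H3K27ac peaks of 845 and 767 bp, with scores of 30.36 and 60.29, that overlapped an H3K4me3 peak of 2911 bp.

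H3K4me3 alone was called at LGR5, LGR6 and ROR2. LGR5, a marker of stem cells in several epithelia, had an H3K4me3 peak of 2623 bp at chr12:71438030-71440652 with a score of 3228.29. Its span of 147182 bp held H3K27ac peaks of 520 and 510 bp with scores of 36.85 and 32.21, both deep in the gene. LGR6 had an H3K4me3 peak of 1445 bp at its annotated start and neither mark at its listed starts 9913 and 20280 bp downstream. An H3K27ac peak of 3400 bp with a score of 302.63 lay between the first and the middle of these LGR6 starts, 4902 bp from the annotated one. ROR2 had an H3K4me3 peak of 2814 bp with a score of 3100, and its nearest H3K27ac peak was 28327 bp from the start.

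LRP5, the other co-receptor, had neither mark at its annotated start but both at its listed start 14179 bp downstream. There an H3K27ac peak of 3787 bp and an H3K4me3 peak of 3186 bp both had a score of 3100. Further H3K27ac peaks of 6227 and 6919 bp with a score of 3100 lay within the gene. In all, the LRP5 span with 1 kb at each end held 17 H3K27ac peaks, a number at the 96.8 percentile of the 3646 genes between 0.5 and 2.0 times its length.

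All 10 inhibitors had H3K4me3 at the start, against 67.9% of all genes. H3K27ac joined it at 2 of the 5 secreted ones and at 4 of the 5 others. H3K4me3 alone was left at 4 of the 10, or 40.0% with an interval of 12.2 to 73.8%. Among all genes with H3K4me3 at the start, 18.1% had it alone, and 55.6% of all genes had both marks. Groups of 5 are too small to tell the secreted inhibitors from the others. DKK1, which binds LRP5 and LRP6 and blocks the ligand, had an H3K4me3 peak of 2287 bp at chr10:52313186-52315472 with a score of 3100. No H3K27ac peak lay in the DKK1 locus, and the nearest was 112695 bp from the start. Its locus held 1 other peak, an H3K4me3 peak of 1056 bp at chr10:52307992-52309047, upstream of the gene. SFRP2, a secreted frizzled-like protein that binds ligands, had an H3K4me3 peak of 1149 bp at chr4:153788552-153789700 with a score of 815.23. Its nearest H3K27ac peak was 104281 bp from the start, and the other H3K4me3 peak of its locus, of 1499 bp, lay at an end of RNF175.

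DKK1 and SFRP2 were the 2 members with H3K4me3 alone over the whole locus, or 4.0% of 50, against 2.67% of all genes. The other 48, or 96.0%, had both marks in the locus, against 86.7% of all genes, and these shares were not matched for gene length. The 2 became 10 when only peaks with a score of at least 100 were counted. They became 4 with flanks of 25 kb and 1, DKK1, with flanks of 100 kb. The shares of all genes at these settings were not computed, so these counts cannot be read as particular to the members. SFRP4 had an H3K4me3 peak of 1849 bp with a score of 3100, and no H3K27ac peak lay in its span. The closest H3K27ac peaks to SFRP4, of 300 and 873 bp, lay 3258 and 3803 bp from the start at an end of EPDR1. SFRP1 differed from the other secreted inhibitors. It had an H3K27ac peak of 4863 bp with a score of 3100 within an H3K4me3 peak of 7824 bp, and a further H3K27ac peak of 7390 bp with a score of 2907.96 in its span. DKK3, a divergent family member, had H3K27ac peaks of 916, 633 and 1524 bp in its span, of which the first overlapped an H3K4me3 peak of 1422 bp near its end.

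The membrane ubiquitin ligases RNF43 and ZNRF3, which remove frizzled receptors from the cell surface, both had both marks at the start. RNF43 had an H3K27ac peak of 655 bp there with a score of 39.31, within an H3K4me3 peak of 1454 bp. The larger peaks of 2385 bp for H3K27ac and 3581 bp for H3K4me3 lay at the far end of RNF43. An annotated end of the neighbouring gene SUPT4H1 lies there too, so these peaks cannot be assigned to RNF43 alone. ZNRF3 had H3K27ac peaks of 390 and 1270 bp and H3K4me3 peaks of 1509 and 1932 bp at its marked end, and its span with 1 kb at each end held 9 H3K27ac peaks.

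Of the destruction complex, the scaffold AXIN1 had H3K27ac peaks of 611 and 610 bp and H3K4me3 peaks of 1696 and 890 bp on either side of its start. APC had an H3K27ac peak of 791 bp with a score of 163.08 within an H3K4me3 peak of 3265 bp, and H3K4me3 alone, with a peak of 2450 bp, at its listed start 30387 bp downstream. AXIN2, a feedback inhibitor that is itself a known target of beta-catenin in many tissues, had H3K4me3 alone. Its H3K4me3 peak of 2859 bp at chr17:65559462-65562320 had a score of 3100, whereas the H3K27ac peak in its span, of 1067 bp with a score of 78.97, lay towards the opposite end.

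**Figure D3:**
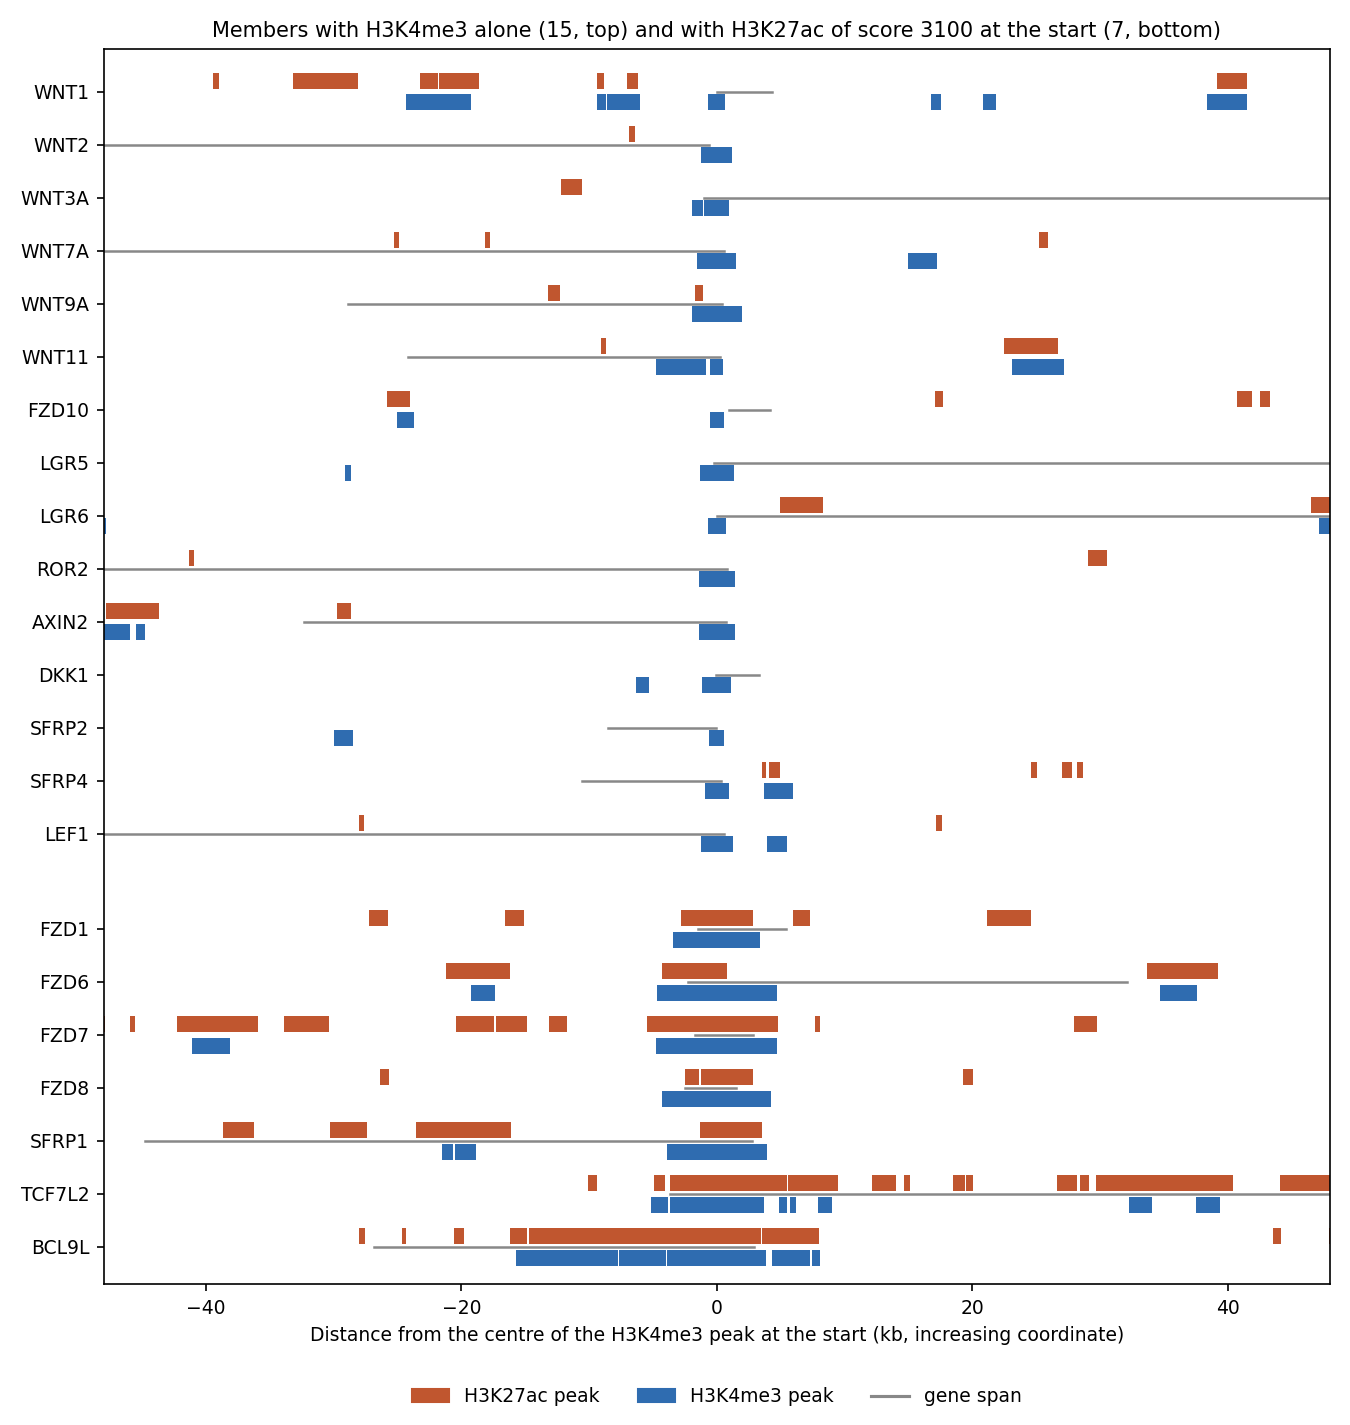
Peaks of H3K27ac (upper boxes) and H3K4me3 (lower boxes) by distance in kb from the centre of the widest H3K4me3 peak at the start, for the 15 members with H3K4me3 alone and the 7 with an H3K27ac start peak that scored 3100; grey lines are gene spans. DKK1, SFRP2 and LGR5 have no H3K27ac box in view, although LGR5 has H3K27ac peaks farther away in its span. The 7 members below have H3K27ac over the same region as H3K4me3.

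The nuclear factors had the highest median H3K27ac of the 4 roles, given below per 100 kb of locus. TCF7L2, the factor best known in colon and pancreas, had an H3K27ac peak of 9150 bp and an H3K4me3 peak of 7393 bp at its start, both with a score of 3100. Its span of 217432 bp with 1 kb at each end held 33 H3K27ac peaks, a number at the 99.3 percentile of the 2617 genes of like length. The widest of these beyond the start, 10791 and 7820 bp with a score of 3100, were centred 38693 and 109246 bp downstream of the start. TCF7L1, which acts mainly as a repressor, had 32 H3K27ac peaks in its span with 1 kb at each end, at the 99.5 percentile of 3175 genes, although the widest at its start was 1248 bp.

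BCL9L, a coactivator that binds beta-catenin, had the widest H3K27ac peak at a start of any member, 18129 bp at chr11:118908311-118926439. H3K4me3 peaks of 7765 and 8048 bp overlapped it. LEF1 was the exception in this role. Its H3K4me3 peak of 2514 bp at chr4:108167145-108169658 had a score of 3100 and also comes within 1 kb of an end of the predicted gene LOC124900752. The H3K27ac peaks of the LEF1 locus were 397 and 514 bp wide, with scores of 41.16 and 37.33.

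TCF7 had neither mark at its annotated start. A listed start 7395 bp downstream had H3K4me3 alone, in a peak of 2452 bp that also comes within 1 kb of an end of VDAC1. A further start, 15400 bp downstream, had H3K27ac alone, in a peak of 538 bp with a score of 40.99. The TCF7 span with 1 kb at each end held 8 H3K27ac peaks, of which 1 lay outside the span itself, at the 97.0 percentile of 6809 genes of like length.

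Over whole loci, the median number of H3K27ac peaks was 6 at ligand loci, 7 at receptor loci and 5 at inhibitor loci, against 6 at the loci of all genes. With only peaks of a score of at least 100 these medians were 2 for ligands, 4 for receptors and 2 for inhibitors, and with distal peaks only, those with no gene end within 2.5 kb, they were 2, 4 and 2.5. At the 5 nuclear factors the median over all peaks was 16, with a range of 2 to 38. Per 100 kb of locus, the median length under H3K27ac was 4782 bp for ligands, 6420 bp for receptors, 2844 bp for inhibitors and 18911 bp for nuclear factors, against 5179 bp for all genes. The ligands ranged from 383 bp at WNT16 to 17246 bp at WNT5B, and the receptors from 417 bp at LGR5 to 31851 bp at FZD7, so the roles overlapped widely.

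FZD7 had the highest value, at the 95.1 percentile of 3824 genes of like length, with 10 H3K27ac peaks beyond the one at its start. LEF1, at 412 bp per 100 kb, lay at the 7.9 percentile of 4252 genes. Flanks hold other genes, and 4 pairs of ligands share part of their loci. These are WNT1 with WNT10B, WNT3 with WNT9B, WNT3A with WNT9A, and WNT6 with WNT10A, whose spans overlap by 118 bp. WNT6 and WNT10A therefore have the same 10 H3K27ac peaks in their loci, with 17602 bp in all.

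**Figure D4:**
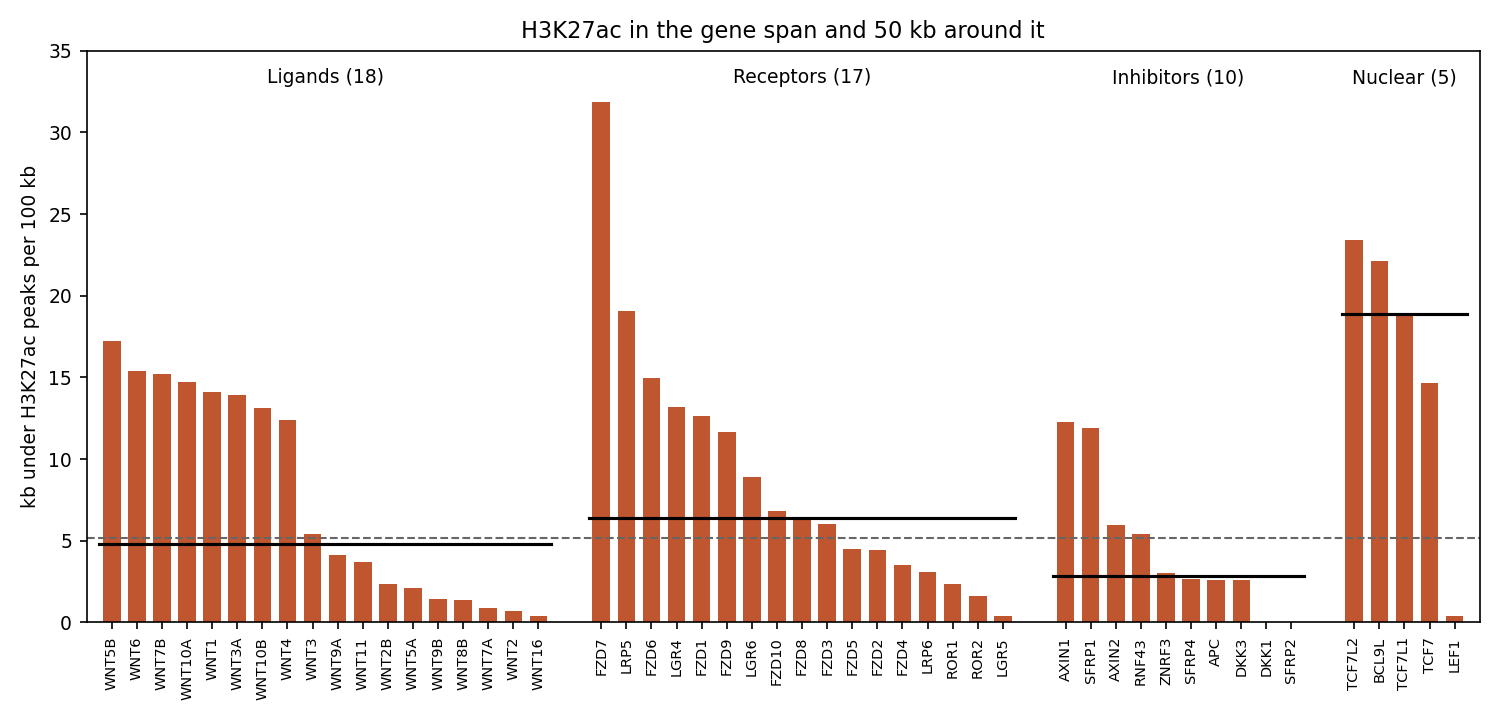
Length in kb under H3K27ac peaks per 100 kb of the gene span with 50 kb on either side, 1 bar per member, with a solid line at the median of each role and a dashed line at the median of all protein-coding genes. FZD7 has the tallest bar, 31851 bp per 100 kb, and DKK1 and SFRP2 have none; the medians of ligands, receptors and inhibitors lie close to the dashed line when set against the spread of their bars.

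With all listed peaks counted, the marks overlapped at the loci in about the same shares as in the genome at large. No share of all peaks was computed at a score of at least 100. Of the 200 H3K4me3 peaks in the loci, 142 overlapped H3K27ac, which is 71.0% with an interval of 64.2 to 77.2%, against 71.0% of all H3K4me3 peaks. Of the 403 H3K27ac peaks, 153 overlapped H3K4me3, which is 38.0% with an interval of 33.2 to 42.9%, against 34.8% of all. Within spans and the 1 kb around them, 15 of 32 H3K4me3 peaks of ligands overlapped H3K27ac, or 46.9% with an interval of 29.1 to 65.3%. For receptors it was 26 of 32, or 81.2% with an interval of 63.6 to 92.8%, and for inhibitors 13 of 22, or 59.1%. Peaks in 1 locus are not independent, which the intervals do not take into account.

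Over the gene span with 1 kb added at each end, 0 of the 50 members had neither mark, against 19.3% of all genes. The median length was 39771 bp for members and 24170 bp for all genes, and the shares in spans were not matched for length. H3K27ac alone lay at 1, WNT5B, or 2.0%, against 5.17% of all genes. H3K4me3 alone lay in 8 members, or 16.0%, against 7.33% of all genes. These were the ligands WNT1, WNT3A, WNT8B and WNT16, the receptor FZD10 and the inhibitors DKK1, SFRP2 and SFRP4. Both marks lay in 13 of 18 ligand spans, 16 of 17 receptor spans and 7 of 10 inhibitor spans, against 68.2% of all genes. The H3K27ac peaks that bring the ligands to that count were mostly small, as at WNT7A, whose H3K27ac peaks were 399 and 395 bp wide with scores of 36.51 and 38.4.

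H3K4me3 peaks at the starts of members with that mark alone overlapped widely in width with those of all genes in that state. The quartiles were 1397.5 and 2718.5 bp for the 15 members and 1346.2 and 2472.0 bp for all such genes. The median width at these members was 2287 bp, with a range of 1036 bp at WNT11 to 3933 bp at WNT9A. At the starts of all genes with H3K4me3 alone it was 1868 bp. Members with both marks had a median H3K4me3 width of 3436 bp, against 3747 bp for all genes with both. The medians by role among members with both marks were 2121 bp for ligands, 5168 bp for receptors and 1814 bp for inhibitors.

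RefSeq start sequences were matched by gene identifier for 35 members, with 45 listed starts, and for 15812 protein-coding genes, with 22132. The CpG ratio is the number of CpG dinucleotides over that expected from the C and G content of the same 300 bases. Its median was 0.864 at the 17 member starts with both marks, 0.731 at the 19 with H3K4me3 alone and 0.318 at the 6 with neither. The same medians at all listed starts were 0.847, 0.772 and 0.266. Of the sequences given above, WNT8B has 4 CpG dinucleotides and a ratio of 0.256, against 34 and 0.766 in WNT1. WNT3 has 28 and a ratio of 0.871 but carried neither mark at its start, as 5.26% of all starts with a ratio of at least 0.75 did.

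Member starts carried H3K4me3 alone in a larger share than all listed starts, both at a CpG ratio of at least 0.75 and at a lower one. At a ratio of at least 0.75, 9 of 23 member starts had H3K4me3 alone, or 39.1%, against 13.7% of all such starts. Both marks lay at 13 of the 23, or 56.5%, against 80.8% of all such starts. Starts of ligands make up 8 of the 9, and the remaining one is that of ROR2. The ligand starts include inner ones of WNT2B, WNT5A and WNT9B, and the highest ratios are 1.12 at WNT2 and 1.03 at WNT9A. At a ratio under 0.75, 10 of 22 member starts had H3K4me3 alone, or 45.5%, against 11.0% of all such starts. Both marks lay at 4 of these 22, or 18.2%, against 33.8%. Starts of 1 gene are not independent of each other, and members without a strand are not in these counts.

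**Figure D5:**
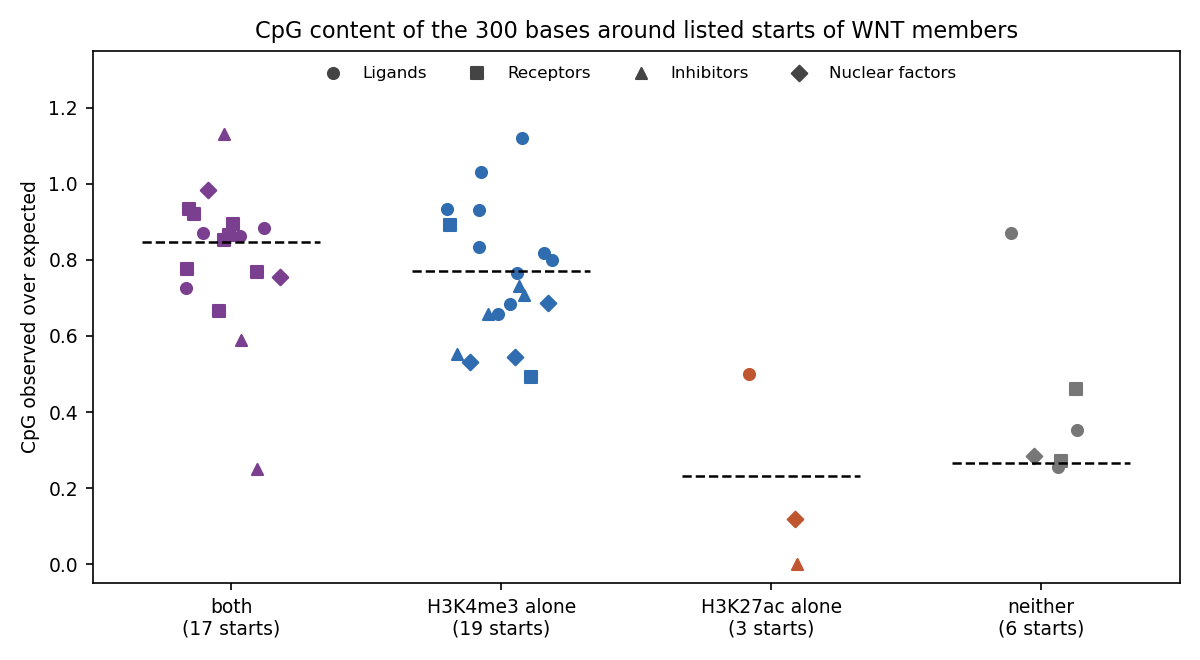
CpG observed over expected in the 300 bases around each of the 45 listed starts of 35 members, by the marks called within 1 kb of that start, with a symbol per role and a dashed line at the median of all listed starts in the same state. Starts with both marks or H3K4me3 alone lie mostly above 0.5, and of the 6 with neither mark all but that of WNT3 lie below it.

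The letters searched for as a TCF and LEF site, on both strands, were TTCAAAG, then also the variant ATCAAAG, then also the variant AACAAAG, and then also the variant TACAAAG. The TATA letters searched for on both strands were TATAAA. A TCF and LEF match lay in 4 of the 45 member windows, or 8.89%, against 11.2% of all windows. The DKK1 window holds 2 such matches and 1 TATAAA, the WNT3 window holds 1 TCF and LEF match, and the other windows given above hold no TCF and LEF match. TATAAA lay in 4 of the 45, or 8.89%, against 9.46% of all windows.

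Among 44 further genes of the pathway, the states were nearer to those of the receptors than of the ligands. Both marks were called at 29, or 65.9%, H3K4me3 alone at 10, or 22.7%, and neither at 5, or 11.4%, and the background shares are those given above. PORCN, which attaches the lipid to WNT proteins, and CTNNB1, which encodes beta-catenin, had both marks. H3K4me3 alone lay at WLS, which carries WNT proteins to the cell surface, and at RSPO1, RSPO2 and RSPO3, the ligands of the LGR receptors. The WLS peak measured 2621 bp, at a score of 1637.89, and 6 H3K27ac peaks lay in the WLS span with 1 kb at each end. Neither mark lay at the annotated starts of RSPO4, the secreted inhibitors FRZB and SOST, the corepressor TLE2 and the ligand WNT8A. TLE2 had both marks at another listed start, and the other 4 had neither mark at any.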

How the data were processed

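ChIP-seq of HCC1599 cells gave 1 library each for H3K27ac and H3K4me3. The authors deposited 1 list of peaks per mark, with a position and a score for every peak; the score has no stated unit. Per the submitters' processing notes, Bowtie2, MACS 1.4 and the build hg38 were used; the version of Bowtie2 and all parameters are not given in the sources used here. Sonication, micrococcal nuclease digestion and the joining of neighbouring peaks affect peak edges and widths. Read depth, signal and copy number were not analysed here.

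Only chromosomes 1 to 22 and X entered, and positions are counted from 1. Gene spans, strands and listed starts came from RefSeq tables of GRCh38.p14, the same build family. A strand was given for 35 of the 50 members and for 15813 protein-coding genes. A peak was distal where no annotated gene end of any kind lay within 2.5 kb of it. The members, roles, the 44 further genes, the marker genes and the rule for values peak by peak were chosen with earlier results of these data known. By that rule, values are given for every ligand, for every member with 1 mark alone at the start, and for the 2 members with the most bp under H3K27ac in the locus among the frizzled receptors, the other receptors, the secreted inhibitors, the ubiquitin ligases, the destruction complex and the nuclear factors; FZD1, FZD3, FZD4, FZD8, FZD9, LRP6, ROR1, TCF7, APC, BCL9L and, of the further genes, WNT8A were described after their values were seen. The printed start sequences were chosen after the states were seen.

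Alternatives were a score of at least 100, windows of 500 bp and 2.5 kb, either gene end, any peak in the span, flanks of 25 and 100 kb, distal peaks only, bp covered, and overlaps covering 500 bp; counting of every listed start, of members with a strand only, and overlaps at a score of at least 100 were added after seeing the data. Software was scipy 1.17.1, pandas 2.3.3 and numpy 2.4.6 under Python 3.11.15. In a test on simulated data, 0 of 2000 genes with known states were called wrongly, and locus counts differed from those of bedtools 2.31.1 at 0 genes.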

Additional observations from a re-analysis of the deposited data

How the results depend on the processing

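Of 68 alternative values, 43 stayed within 1.5 times the count or inside the interval of the value given above. Raw values were compared, so those outside include counts in the smaller group with a strand and bp set against a number of peaks. The tally is therefore no measure of stability as a whole. The counts of starts stayed within 1.5 times at windows of 500 bp and 2.5 kb, at 500 bp covered and at either gene end. They did so too at a score of at least 100, although receptors with both marks then fell from 12 to 9. Over the span with 1 kb added at each end, both marks were called at 41 members and 13 ligands, H3K4me3 alone at 8 members, and neither mark at 0 ligands. With every listed start, neither mark was called at 2 ligands. Among members with a strand, both marks were called at 15 of 35 members, 3 of 15 ligands, 7 of 10 receptors and 3 of 6 inhibitors; the share was 42.9% of members and 20.0% of ligands, against 52.0% and 27.8% when those without a strand are counted too, and the cause was not tested. Median numbers of H3K27ac peaks per locus at a score of at least 100 were 2 for ligands, 4 for receptors and 2 for inhibitors, and for distal peaks 2, 4 and 2.5. For ligands the median was 3.5 with flanks of 25 kb and 9.5 with flanks of 100 kb. As bp per 100 kb the medians were 4782, 6420 and 2844 for ligands, receptors and inhibitors, another quantity than a count. Members with H3K4me3 alone over the whole locus numbered 10 at a score of at least 100. They numbered 4 with flanks of 25 kb and 1 with flanks of 100 kb, which is DKK1. The shares of all genes at these settings were not computed. At a score of at least 100, 53.4% of H3K27ac and 60.7% of H3K4me3 peaks in the loci overlapped the other mark. The same shares of all peaks were not computed at that score, and the cause was not tested. No paired analysis was possible because each mark had 1 library. Read depth is unknown, so absence of a peak means that none was listed.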
